A study of Mus musculus with 10 samples.

Results

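The genes described here are 10 markers of the muscle and wall cells of vessels and airways, chosen by symbol: the contractile genes Acta2, Myh11, Tagln, Cnn1, Des, Mylk and Lmod1, and the pericyte genes Pdgfrb, Rgs5 and Cspg4. All 10 were among the 24421 genes of the deposited count table, and all 10 were among the 13203 genes that passed the filter on low counts and were tested. Levels were compared between lung squamous cell carcinoma (SCC) of mice given NTCU, a nitrosourea carcinogen that induces this tumour when applied to the skin (5 libraries, SCC 1 to SCC 5), and normal lung of untreated mice (5 libraries, normal 1 to normal 5). All mice were wild type and of the NIH Swiss stock; their ages, and the time of NTCU exposure, are not given in the labels. Regions were cut by laser capture from fixed, paraffin-embedded sections, and total RNA was sequenced. No label says which animal a library came from, so p-values measure the spread between these libraries and are too small if some regions came from 1 animal.

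Smooth muscle cells tighten airways and arteries by sliding actin over myosin, a movement switched on when myosin light chain kinase phosphorylates the light chain. Their contractile genes are driven by serum response factor and its cofactor myocardin, and their level is often read as a measure of how differentiated the muscle is. Pericytes sit on capillaries, share the basement membrane with the endothelium, and are recruited by PDGF-B from endothelial cells through the receptor that Pdgfrb encodes.

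Total counts ran from 1004105 to 3691806 in SCC libraries and from 1457641 to 6817106 in normal lung libraries, so that the floor of 3 counts stood at 0.813 to 2.99 CPM (counts of a gene per 1000000 counts of its library) in SCC and at 0.440 to 2.06 CPM in normal lung. The tumour libraries carried the basal keratin Krt5 at 201 to 1486 CPM, against 0 to 5.49 CPM in normal lung. Counts on chemosensory receptor genes, which lung is not known to use widely, stood at 3.25, 3.31 and 3.51 CPM per kb in SCC 1, SCC 3 and SCC 4, at 0.590 and 0.419 CPM per kb in SCC 2 and SCC 5, and at 0.0429 to 0.204 CPM per kb in normal lung. For each of the 10 genes a background that scaled with gene length at these rates was estimated, and counts of called genes were repeated without SCC 1, SCC 3 and SCC 4 and after subtraction of the background. SCC 3 and SCC 4 resembled each other most, where chi-square over its degrees of freedom was 2.93 across genes, against at least 11.5 for every other pair within a group. No pair agreed within sampling noise, so each library was counted as 1.

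The contractile genes fell in SCC, with the exception of Lmod1. Of the 7 genes, 6 were lower and 0 were higher (edgeR quasi-likelihood test, adjusted p under 0.05), where 8.68% of all tested genes were called lower and 12.5% higher. In DESeq2 the numbers were again 6 and 0, and limma-voom also called Lmod1 higher. At an unadjusted p under 0.05 no contractile gene was higher in the edgeR test. The median log2 fold change of the 7 genes was -2.29, beside 0.07 over all tested genes. For 5 of the 7, each SCC library lay below each normal lung library, which held for 5.77% of all tested genes. In captured regions of bulk tissue, fewer cells of a type and less RNA per cell cannot be told apart.

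Myh11, the heavy chain of smooth muscle myosin and the marker most restricted to this cell type (chromosome 16, 14194535 to 14291372, GRCm38), measured 32.1, 34.1, 74.9, 73.7 and 60.8 CPM in SCC 1 to SCC 5. It measured 243, 181, 480, 280 and 295 CPM in normal 1 to normal 5. The lowest normal lung library was thus above the highest SCC library, and Myh11 fell by 2.52 on the log2 scale (SE 0.40, edgeR adjusted p = 5.36e-05, n = 5 each). Mylk, the kinase that starts contraction (chromosome 16, 34745210 to 35002420), had 62.2, 155, 97.4, 86.6 and 84.9 CPM in SCC 1 to SCC 5, against 426, 399, 522, 429 and 495 CPM in normal 1 to normal 5. Its coefficient of variation was 35.6% in SCC and 11.4% in normal lung, and the groups did not overlap. Mylk fell by 2.35 (SE 0.37, edgeR adjusted p = 5.58e-05).

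Acta2, the alpha actin of smooth muscle (chromosome 19, 34241090 to 34255590), had 22.6, 16.0, 33.6, 25.9 and 49.8 CPM in SCC 1 to SCC 5, against 109, 122, 232.5, 76.8 and 147 CPM in normal 1 to normal 5. The groups did not overlap, SCC 5 was the highest of its group, and the difference was -2.29 (SE 0.41, edgeR adjusted p = 0.000201). Acta2 shares much of its coding sequence with the other muscle actins, and the treatment of multiply mapped reads is not given, so its count is uncertain to that extent. Tagln, transgelin, an actin-binding protein of differentiated smooth muscle (chromosome 9, 45929619 to 45936058), had 6.60, 4.88, 23.1, 23.9 and 33.1 CPM in SCC 1 to SCC 5. In normal 1 to normal 5 it had 91.6, 98.4, 121, 42.05 and 111 CPM. SCC 1 and SCC 2 were the lowest, and Tagln fell by 2.42 (SE 0.49, edgeR adjusted p = 0.000795). An antisense gene, Gm48529, shares part of its exons with Tagln in GENCODE M21, and the strand setting of the counting is not given, so reads of the pair could not be told apart. Des and Mylk also have antisense genes on part of their exons, with the same limit.

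Des, desmin, the intermediate filament of muscle cells (chromosome 1, 75360329 to 75368579), had 22.6, 37.7, 28.1, 31.9 and 72.7 CPM in SCC 1 to SCC 5, against 102, 144, 214, 130 and 108 CPM in normal 1 to normal 5. All SCC libraries were below all normal lung libraries, and Des fell by 1.93 (SE 0.40, edgeR adjusted p = 0.00083). Heart muscle, which in the mouse also lines pulmonary veins, makes desmin too. Of the 10 tested heart muscle genes 7 were lower in SCC and 0 higher, beside 8.68% and 12.5% of all tested genes. In SCC 2 and SCC 5 alone 5 of 12 were lower (5.16% of all), and after background subtraction 4 of 9 (6.79% of all). Among them was Actc1, the cardiac actin, at 0.943 to 16.7 CPM in SCC and 84.8 to 223 CPM in normal lung. Myh6, a cardiac myosin, stood at 7.04 to 60.02 CPM in SCC and 127 to 408 CPM in normal lung. The part of heart muscle in the fall of Des was not tested. Cnn1, calponin, a late marker of contractile smooth muscle (chromosome 9, 22099216 to 22109630), was the least abundant contractile gene in SCC. It had 0, 2.44, 8.81, 7.97 and 5.31 CPM in SCC 1 to SCC 5, where 0 counts in SCC 1 allow up to 2.83 CPM, and 31.1, 11.6, 35.1, 6.94 and 24.0 CPM in normal 1 to normal 5. The groups overlapped, normal 4 being below SCC 3 and SCC 4. Cnn1 fell by 2.22 (SE 0.77, edgeR adjusted p = 0.0405). The call was lost in 8 of 21 alternative fits, among them those without SCC 1, SCC 2, normal 1 or normal 3 (log2 fold change -1.97, -2.04, -2.25 and -2.06, adjusted p = 0.06, 0.0723, 0.0572 and 0.0954; range over all alternatives 0.00389 to 0.466), and the background amounted to 88.7% of its 46 counts in SCC. The estimate overshot in SCC 1, where it was 8.20 CPM and no count was found. It was also above the measured level in SCC 4 (8.85 against 7.97 CPM) and just under it in SCC 3 (8.33 against 8.81 CPM). After subtraction, which left no Cnn1 counts in SCC 1 and SCC 4, Cnn1 was at -3.79 and passed (edgeR adjusted p = 0.0158).

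**Figure D1:**
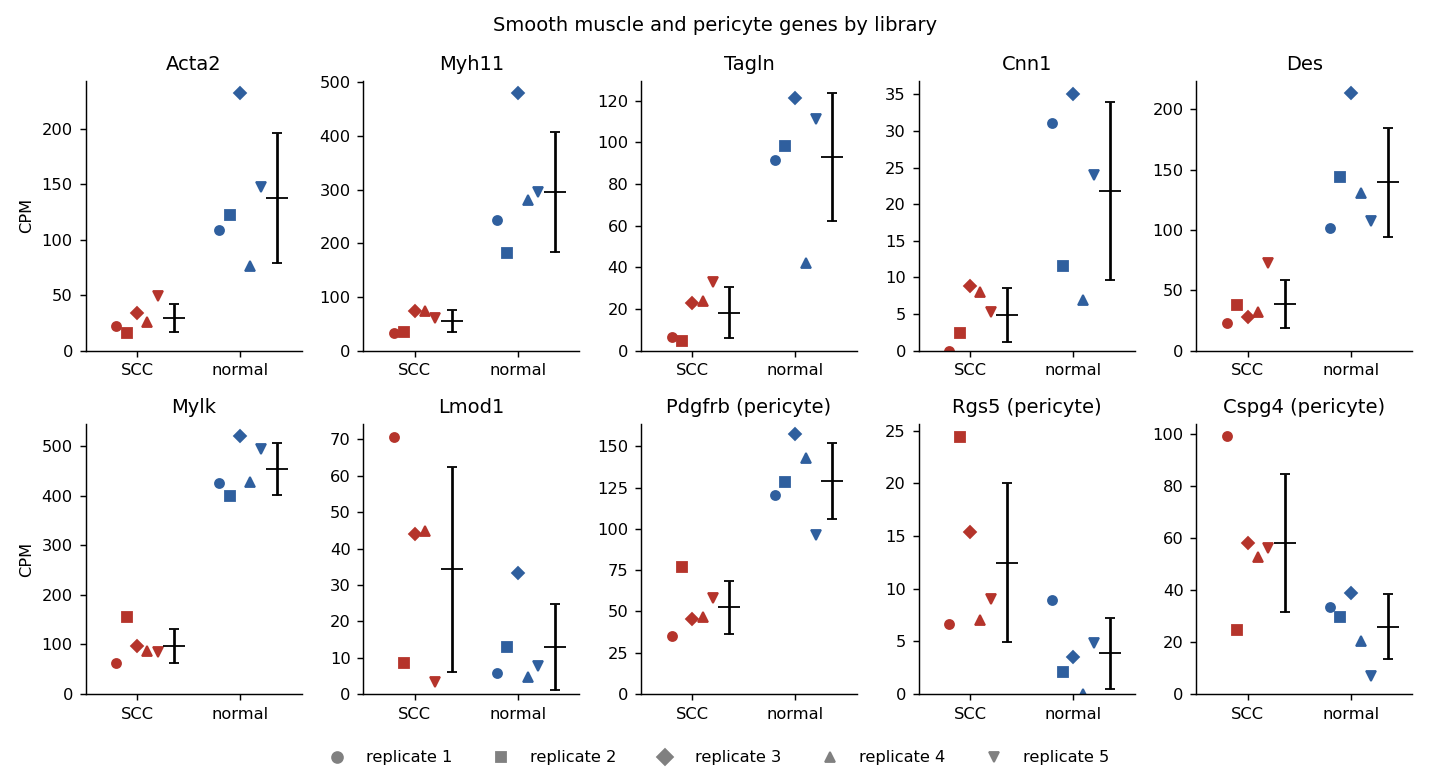
CPM of each of the 10 genes per library, with SCC in red, normal lung in blue, a marker shape for each replicate number (a name only, not a pairing), and the mean ± SD (n = 5) in black. SCC libraries lie below all normal lung libraries for Acta2, Myh11, Tagln, Des, Mylk and Pdgfrb, and the groups overlap for Cnn1, Lmod1, Rgs5 and Cspg4.

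When SCC was represented by SCC 2 and SCC 5 alone, 5 of the 7 contractile genes were called lower and 0 higher, where 5.16% of all tested genes were lower and 4.14% higher. Myh11 (-2.74) and Mylk (-2.07) were among the 5, and Cnn1 (-2.57, edgeR adjusted p = 0.0968) and Lmod1 were not. After the background was subtracted, 6 were lower and 0 higher, beside 6.79% lower and 8.07% higher among all tested genes. Over the 5 SCC libraries together, the background came to 11.3% of the counts of Acta2, 11.6% for Des and 11.8% for Mylk. It came to 15% for Tagln and 20.6% for Myh11. By library it was uneven. For Myh11 it was 22.8 of 34 counts in SCC 1, 39.7 of 136 in SCC 3 and 23.3 of 74 in SCC 4. In SCC 2 it was 14.4 of 126 Myh11 counts, and in SCC 5 6.8 of 149. For Tagln it was 5.50 of 7 counts in SCC 1. With the receptor signal as a covariate, Myh11 alone stayed called (-2.49, adjusted p = 0.0425; range over all its alternatives 2.02e-09 to 0.0425). Receptor signal and group did not overlap, so that in this fit their effects cannot be told apart.

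Lmod1, leiomodin, which nucleates actin filaments in smooth muscle (chromosome 1, 135324807 to 135368065), did not follow the other contractile genes. It had 70.7, 8.40, 44.04, 44.8 and 3.27 CPM in SCC 1 to SCC 5, against 5.73, 12.99, 33.2, 4.63 and 7.55 CPM in normal 1 to normal 5. SCC 1, SCC 3 and SCC 4 were above every normal lung library, and SCC 2 and SCC 5 were within or below the range of normal lung. The difference of 1.26 (SE 0.69) failed the edgeR test (adjusted p = 0.212). Its value was -1.28 with SCC 2 and SCC 5 alone (edgeR adjusted p = 0.528) and 1.56 after background subtraction (edgeR adjusted p = 0.27; range over all alternatives 0.0122 to 0.542). The 3 high libraries were those of high receptor signal. The background set by that signal ran from 12.8 to 13.9 CPM for Lmod1 in these libraries and came to 26.7% of all its SCC counts. The part of the receptor signal in the high values beyond this estimate was not tested.

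**Figure D2:**
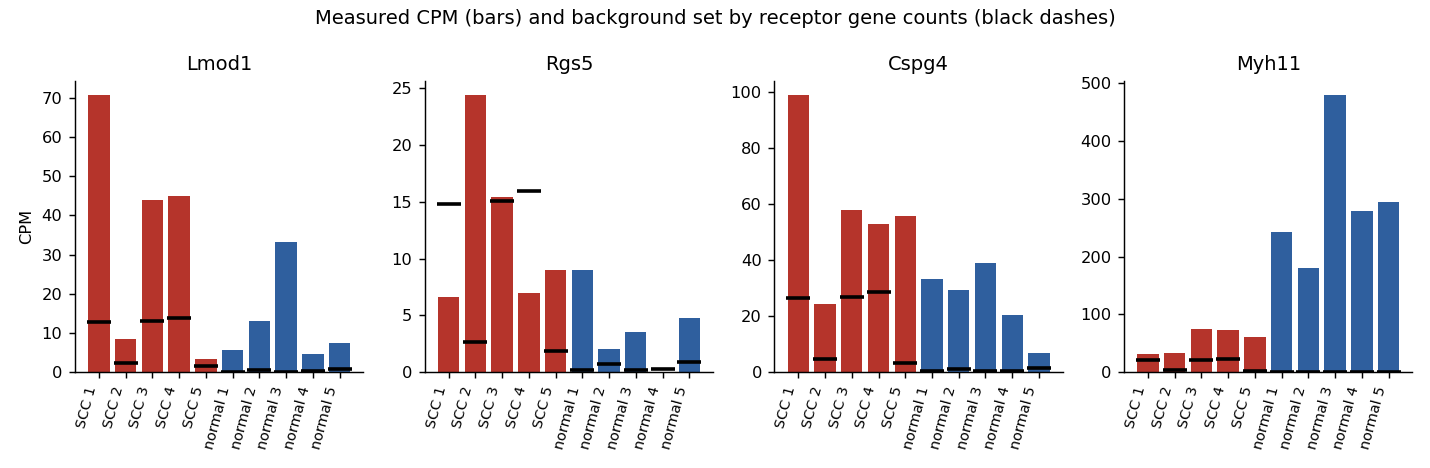
CPM per library of Lmod1, Rgs5, Cspg4 and Myh11 (bars, red for SCC and blue for normal lung), with the background expected from the receptor signal and gene length as black dashes. In SCC 1 and SCC 4 the bars of Rgs5 (6.60 and 6.97 CPM) end below their dashes, whereas Myh11 in normal lung stands far above its own.

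The start regions of the contractile genes are shown because many contractile genes are known targets of serum response factor, which binds the CArG box, and because Lmod1 differed from the others here. RefSeq windows from 250 bases before to 50 after the start (GRCm38.p6, the assembly of the mm10 build) were at hand for 7 of the 10 genes, and not for Myh11, Tagln and Pdgfrb. Both strands were searched for the CArG box, for a relaxed CArG box with at most 1 C or G in its A/T-rich core (added after the strict box had matched no member), for the MCAT motif CATTCC bound by TEAD factors, for TGGGAA, bound by the Notch partner RBPJ, and for TATAAA. The strict CArG box was in 1.63% of 32841 windows and the relaxed one in 9.98%. MCAT was in 14.7%, TGGGAA in 25.6% and TATAAA in 13.6%. Of the 7 genes, Acta2 alone held relaxed CArG boxes, at -84 to -75 and at -34 to -25 from the start, and the second overlaps TGGGAA at -27 to -22. MCAT was in the windows of Acta2, Mylk and Lmod1, and no window of the 7 held TATAAA. The 3 windows follow, 5′ to 3′ on the strand of the gene, with relaxed CArG boxes and MCAT motifs (or their reverse complement) in capitals. They lie at chr19:34255324-34255623 (minus strand), chr16:34784700-34784999 (plus strand) and chr1:135324563-135324862 (plus strand). All 3 starts lie inside the annotated gene, that of Lmod1 close to its first base. Positions from the start therefore hold for these RefSeq starts only.
Acta2: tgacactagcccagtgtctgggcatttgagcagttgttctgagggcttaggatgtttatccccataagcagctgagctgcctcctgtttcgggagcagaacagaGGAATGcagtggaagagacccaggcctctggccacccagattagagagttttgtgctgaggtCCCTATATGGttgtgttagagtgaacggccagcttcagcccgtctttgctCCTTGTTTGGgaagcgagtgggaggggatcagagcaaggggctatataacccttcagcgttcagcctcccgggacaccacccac
Mylk: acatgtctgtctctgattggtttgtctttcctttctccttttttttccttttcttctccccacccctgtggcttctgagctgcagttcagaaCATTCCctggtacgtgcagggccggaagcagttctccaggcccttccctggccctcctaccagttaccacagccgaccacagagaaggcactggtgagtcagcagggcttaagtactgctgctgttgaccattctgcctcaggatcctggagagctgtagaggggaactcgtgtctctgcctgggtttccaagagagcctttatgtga
Lmod1: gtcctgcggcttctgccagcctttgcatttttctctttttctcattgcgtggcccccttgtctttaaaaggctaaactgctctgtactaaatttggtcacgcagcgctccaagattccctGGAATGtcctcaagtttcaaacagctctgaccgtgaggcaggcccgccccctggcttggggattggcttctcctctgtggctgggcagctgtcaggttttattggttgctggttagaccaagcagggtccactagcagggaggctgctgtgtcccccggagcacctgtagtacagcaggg
Among the contractile genes, MCAT was thus in the windows of 2 that fell and of Lmod1, which did not. The windows of Cnn1 and Des, which fell, and of Rgs5 and Cspg4, which did not, held no MCAT. A match is a description of the letters only.

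Of the 3 pericyte genes 1 was lower (Pdgfrb) and 0 were higher (edgeR, adjusted p under 0.05), where 8.68% of all tested genes were lower and 12.5% higher. DESeq2 gave the same numbers, and limma-voom called Cspg4 higher as well. Without adjustment Cspg4 also passed the edgeR test. The median log2 fold change of the 3 genes was 1.06. In SCC 2 and SCC 5 alone 0 of 3 were lower and 0 higher (5.16% and 4.14% of all tested genes), with a median of 0.54. After background subtraction 1 of 2 tested was lower and 0 higher (6.79% and 8.07% of all), with a median of -0.17. Pdgfrb, the PDGF-B receptor that pericytes and smooth muscle cells need to cover vessels (chromosome 18, 61045150 to 61085061), had 34.9, 76.7, 45.1, 46.8 and 58.4 CPM in SCC 1 to SCC 5, against 121, 129, 157, 143 and 96.0 CPM in normal 1 to normal 5. The groups did not overlap, and Pdgfrb fell by 1.41 (SE 0.35, edgeR adjusted p = 0.00443). With SCC 2 and SCC 5 alone the difference was -1.07 and no longer passed (edgeR adjusted p = 0.085), and after background subtraction it was -1.40 and passed (edgeR adjusted p = 0.0132; range over all alternatives 7.52e-05 to 0.637).

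Rgs5, a brake on G protein signalling and a marker of brain and tumour pericytes (chromosome 1, 169655501 to 169695813), had 6.60, 24.4, 15.4, 6.97 and 8.98 CPM in SCC 1 to SCC 5, against 8.95, 2.05, 3.52, 0 and 4.802 CPM in normal 1 to normal 5, where it was the scarcest of the 10 genes. The groups overlapped, 0 counts in normal 4 allow up to 1.16 CPM, and the difference of 1.59 (SE 0.87) failed the edgeR test (adjusted p = 0.211; range over 20 alternatives 0.0593 to 0.4). SCC 2, where the background was 2.68 CPM, held 90 of the 154 SCC counts. In SCC 1, SCC 3 and SCC 4 the background was 14.8, 15.03 and 15.97 CPM, above the measured level in SCC 1 and SCC 4 and just under it in SCC 3. After subtraction Rgs5 was too low to be tested. Cspg4, the NG2 proteoglycan of the pericyte surface (chromosome 9, 56865033 to 56899870), had 99.0, 24.4, 57.8, 52.8 and 55.9 CPM in SCC 1 to SCC 5, against 33.3, 29.4, 38.9, 20.4 and 6.86 CPM in normal 1 to normal 5. All SCC libraries except SCC 2 were above all normal lung libraries, and the difference of 1.06 (SE 0.47) did not pass (edgeR adjusted p = 0.116). Using SCC 2 and SCC 5 alone it was 0.54, and after subtraction 1.06 (edgeR adjusted p = 0.689 and 0.246; range over all alternatives 0.0292 to 0.689). The background was 26.8% of its SCC counts.

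**Figure D3:**
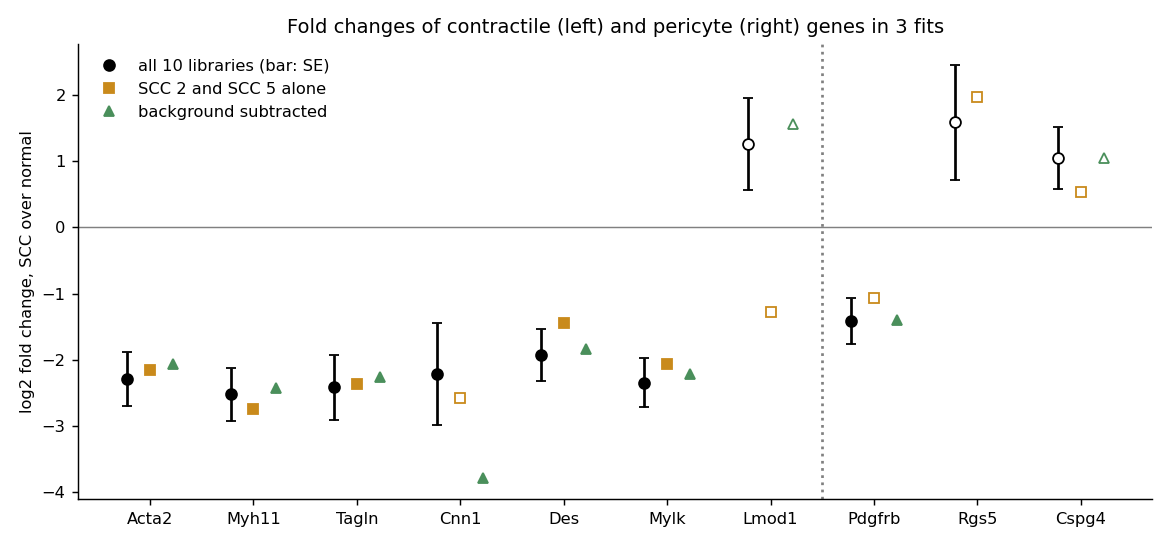
Log2 fold change of SCC over normal lung for the contractile genes (left of the dotted line) and the pericyte genes (right), with all 10 libraries (circles, bars for the SE), with SCC 2 and SCC 5 alone (squares) and after background subtraction (triangles); filled symbols passed an adjusted p under 0.05. Acta2, Myh11, Tagln, Des and Mylk are filled and below 0 in each fit, Pdgfrb is open with SCC 2 and SCC 5 alone, Lmod1 changes side, and Rgs5 has no triangle because it was not tested after subtraction.

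Set against each other, the contractile sum differed more between the groups than the pericyte sum did. The 7 contractile genes summed to 217, 258, 310, 295 and 310 CPM in SCC 1 to SCC 5, against 1008, 969, 1637, 969 and 1188 CPM in normal 1 to normal 5. The 3 pericyte genes summed to 140, 125, 118, 107 and 123 CPM in SCC 1 to SCC 5, against 163, 160, 200, 164 and 108 CPM in normal 1 to normal 5. The contractile sums did not overlap between the groups and the pericyte sums did. The ratio of the sums was 2.30 ± 0.50 in SCC and 7.48 ± 2.19 in normal lung (SD, n = 5 each), with ranges of 1.54 to 2.77 and 5.92 to 11.03. On the log2 scale the ratio was 1.17 ± 0.34 in SCC and 2.86 ± 0.39 in normal lung, a difference of -1.69, given without a test because the genes were chosen with earlier results known. The make-up of the pericyte sum also differed. Pdgfrb made up 24.8% to 61.1% of it in SCC and 74.1% to 89.2% in normal lung, while Cspg4 made up 19.4% to 70.5% in SCC and 6.37% to 20.4% in normal lung. These sums and shares include the estimated background. In SCC 1, SCC 3 and SCC 4 it was 26.4, 26.8 and 28.5 CPM for Cspg4. For Pdgfrb it was 17.8, 18.1 and 19.2 CPM in these libraries, and for Rgs5 14.8, 15.03 and 15.97 CPM. After subtraction the difference of -1.69 was -1.50. Between single genes, the ratio of Mylk to Pdgfrb was 1.46 to 2.16 in SCC and 2.99 to 5.16 in normal lung, without overlap, and that of Myh11 to Pdgfrb was 0.445 to 1.66 in SCC and 1.41 to 3.07 in normal lung, with overlap.

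**Figure D4:**
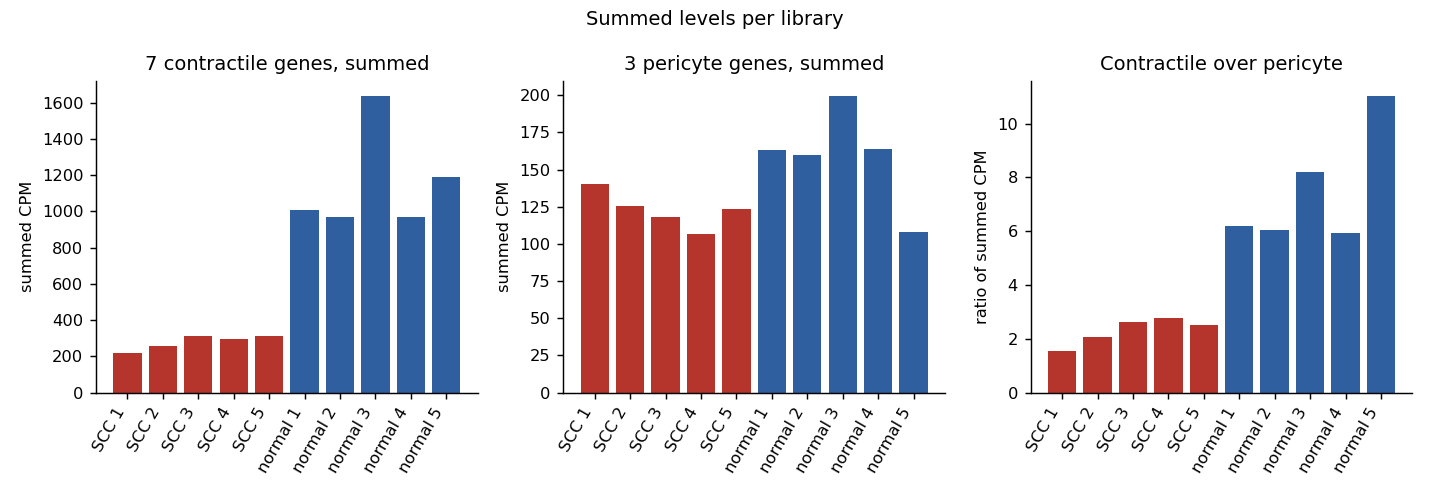
Summed CPM of the 7 contractile genes, summed CPM of the 3 pericyte genes, and the ratio of these sums, per library, with SCC in red and normal lung in blue. The contractile sum is at most 310 CPM in SCC and at least 969 CPM in normal lung, the pericyte sums overlap, and the ratio is at most 2.77 in SCC and at least 5.92 in normal lung.

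Per kb of annotated exon, the mean levels of the 10 genes ran from 1.95 to 14.5 CPM per kb in SCC and from 0.850 to 67.6 CPM per kb in normal lung. The SCC order was led by Acta2 at 14.5 ± 6.37, Des at 12.7 ± 6.55, Mylk at 12.01 ± 4.28 and Tagln at 11.5 ± 7.61 CPM per kb (SD, n = 5). Then came Pdgfrb at 9.56 ± 2.91, Lmod1 at 8.67 ± 7.13, Myh11 at 8.34 ± 3.16 and Cspg4 at 7.14 ± 3.28 CPM per kb, and last Rgs5 at 2.74 ± 1.66 and Cnn1 at 1.95 ± 1.47 CPM per kb. Between Cspg4 and Rgs5 the step was larger than the combined SD of the pair, and all other neighbours in SCC differed by less. These levels include the background set by the receptor signal. It was 3.25, 3.31 and 3.51 CPM per kb in SCC 1, SCC 3 and SCC 4, and 0.590 and 0.419 CPM per kb in SCC 2 and SCC 5. In normal lung it was 0.0429 to 0.204 CPM per kb. In normal lung the order was Acta2 at 67.6 ± 28.9, Tagln at 58.2 ± 19.2, Mylk at 56.1 ± 6.41, Des at 46.0 ± 14.8 and Myh11 at 44.7 ± 16.9 CPM per kb, none of which differed from its neighbour by more than the combined SD. Pdgfrb at 23.6 ± 4.24 and Cnn1 at 8.63 ± 4.83 CPM per kb each stood below the gene before them by more than that. Lmod1 at 3.24 ± 2.99 and Cspg4 at 3.17 ± 1.54 CPM per kb followed, each within the combined SD of the gene before it, and Rgs5 at 0.850 ± 0.738 CPM per kb was last, below Cspg4 by more than that.

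Within SCC the libraries did not rank alike for all genes. SCC 2 had the lowest Acta2 and Tagln of the group and the highest Mylk, Pdgfrb and Rgs5, so that Mylk made up 59.9% of its contractile sum, against 27.4% to 31.4% in the other SCC libraries. SCC 5 had the highest Acta2, Tagln and Des. Within normal lung, normal 3, the most deeply sequenced library, had the highest level of 9 of the 10 genes, all but Rgs5. With group means removed, the correlation over the 10 libraries between pairs of contractile genes other than Lmod1 had a median of 0.45 (15 pairs, range -0.12 to 0.85). Between Lmod1 and the other contractile genes the median was -0.03 (6 pairs), between pericyte genes it was -0.16 (3 pairs), and between contractile and pericyte genes it was 0.10 (21 pairs). These values are a description, since the points share library and depth.

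Of the further genes of the smooth muscle apparatus, 9 of 26 tested were lower and 0 higher, beside 8.68% lower and 12.5% higher of all tested genes, and the median log2 fold change was -0.88. Itga8, an integrin chain of lung mesenchyme and smooth muscle, fell by 3.27 (SE 0.39, edgeR adjusted p = 1.4e-06), to 28.1 to 69.6 CPM in SCC, against 321 to 471 CPM in normal lung. Npnt, nephronectin, the matrix ligand of that integrin, fell by 2.50, and Myl9, the light chain that Mylk phosphorylates, fell by 2.36 (edgeR adjusted p = 0.00013 and 0.000684). Csrp1, Pde5a, Hhip, Vcl and Cald1, named after their values were seen, were also among the genes called lower. The remaining 17 genes did not pass. Of these, also named after their values were seen, Tpm2 (0.24), Ppp1r12b (0.93) and Kcnmb1 (0.83) were above 0. The rest were below 0, among them Smtn (-0.56), Tpm1 (-0.58) and Actg2 (-0.93). Ppp1r12b had 226, 161 and 163 CPM in SCC 1, SCC 3 and SCC 4, the libraries of high receptor signal. It had 65.55 and 15.5 CPM in SCC 2 and SCC 5. Kcnmb1 had 32.05, 38.5 and 26.9 CPM in the former and 4.33 and 5.72 CPM in the latter, while Tpm2 was highest in SCC 5 (133.9 CPM). The part of the receptor signal in these values was not tested. From SCC 2 and SCC 5 alone 8 of 26 were lower and 0 higher (5.16% and 4.14% of all tested genes), and after subtraction 9 of 25 and 0 (6.79% and 8.07%).

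Of the regulators of smooth muscle transcription, 2 of 18 tested were higher, a share near the 12.5% of all tested genes, and 5 were lower, beside 8.68% of all. The median was -0.59. Myocd, myocardin, the cofactor that switches on contractile genes, had 37.7, 26.3, 38.5, 33.9 and 20.4 CPM in SCC 1 to SCC 5, against 8.95, 1.37, 9.98, 2.70 and 8.23 CPM in normal 1 to normal 5. Its libraries did not overlap, with SCC above, as was the case for 8.81% of all tested genes, and it rose by 2.20 (SE 0.62, edgeR adjusted p = 0.0115). Its call did not survive in SCC 2 and SCC 5 alone (1.77, edgeR adjusted p = 0.239), nor once the background was subtracted (2.21, edgeR adjusted p = 0.0637). Klf5, a factor of proliferating smooth muscle and of squamous epithelium alike, rose by 1.48 (edgeR adjusted p = 0.0132). Foxf1, a factor of lung mesenchyme and endothelium, fell by 2.93, Tead1, which binds MCAT motifs, fell by 1.82, and Tbx18, a mural cell factor, fell by 1.63 (edgeR adjusted p = 8.48e-05, 0.00333 and 0.00371). Serum response factor itself (Srf), named after its value was seen, was at -0.17 and did not pass (edgeR adjusted p = 0.841). In SCC 2 and SCC 5 alone 2 were higher and 4 lower (4.14% and 5.16% of all tested genes), with a median of -1.51, and after subtraction 1 was higher and 3 were lower (8.07% and 6.79%).

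Of the further pericyte and mural genes, 8 of 20 tested were lower and 0 higher, beside 8.68% and 12.5% of all tested genes, with a median of -0.56. Gucy1a3 and Gucy1b3, the subunits of the nitric oxide receptor in mural cells, fell, at -3.36 and -3.44 (SE 0.39 and 0.45, edgeR adjusted p = 1.15e-06 and 4.69e-06). Gucy1a3 had 10.2 to 35.8 CPM in SCC, against 216 to 306 CPM in normal lung. Enpep, a peptidase of the pericyte surface that cleaves angiotensin, fell by 3.03 (edgeR adjusted p = 2.83e-05). Notch3 (-0.54), Abcc9 (-0.58) and Kcnj8 (0.57), a mural Notch receptor and a pair of potassium channel subunits named after their values were seen, did not pass. Kcnj8 had 21.7, 19.8 and 25.9 CPM in SCC 1, SCC 3 and SCC 4, the libraries of high receptor signal. It had 2.17 and 0.408 CPM in SCC 2 and SCC 5, and 0 to 25.4 CPM in normal lung. From SCC 2 and SCC 5 alone, 7 of 23 tested were lower and 0 higher, beside 5.16% and 4.14% of all, with a median of -1.52. After subtraction 7 of 18 were lower and 0 higher, beside 6.79% and 8.07% of all.

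In the PDGF and vessel recruitment list 11 of 21 tested genes were lower and 0 higher, beside 8.68% and 12.5% of all tested genes, with a median of -1.14. In SCC 2 and SCC 5 alone 11 of 22 were lower (5.16% of all), and after subtraction 10 of 21 (6.79% of all). Tek, the angiopoietin receptor, Eng, a TGF-beta co-receptor, and S1pr1, a lipid receptor, fell, at -3.48, -3.13 and -2.92 (edgeR adjusted p = 9.06e-07, 9.53e-07 and 4.77e-06); all are mainly endothelial. Pdgfb, the ligand of the Pdgfrb receptor, named for that role, fell by 2.03 (SE 0.45, edgeR adjusted p = 0.00178). The ligands Tgfb1 (-0.25), Tgfb2 (-0.06) and Tgfb3 (-0.14) and the angiopoietin Angpt2 (0.52), named after their values were seen, did not pass. Endothelial markers moved with these groups, with 12 of 14 lower (8.68% of all tested genes), 0 higher and a median of -3.47. Endothelial calls were 11 of 14 lower in SCC 2 and SCC 5 alone (5.16% of all), and after subtraction 12 of 13 (6.79% of all). Summed, the endothelial markers ran from 242.5 to 498 CPM in SCC and from 2930 to 4102 CPM in normal lung, and none was at 0 in a whole group. Tie1 fell by 3.77 and Plvap fell by 3.54 (edgeR adjusted p = 5.17e-07 and 6.57e-07). The part of vessel content in the fall of contractile and pericyte genes was not tested.

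Of 14 tested fibroblast genes 2 were higher, a share near the 12.5% of all tested genes, and 5 were lower, beside 8.68% of all, with a median of -0.76. In SCC 2 and SCC 5 alone 1 of 14 was higher and 2 were lower (4.14% and 5.16% of all), with a median of -0.32. After subtraction 1 of 12 was higher and 4 were lower (8.07% and 6.79% of all). Their summed levels were 898 to 2795 CPM in SCC and 1809 to 2768 CPM in normal lung. Tnc, a tenascin of activated stroma, and Inhba, an activin chain, rose by 2.71 and 2.57 (edgeR adjusted p = 0.000559 and 0.0349). Inhba did not pass in SCC 2 and SCC 5 alone (2.89, edgeR adjusted p = 0.0952) and was too low to be tested after subtraction. Tcf21, a fibroblast factor, fell by 3.42 and Pdgfra, the other PDGF receptor, fell by 2.33 (edgeR adjusted p = 2.27e-05 and 0.000135). Basal and myoepithelial markers, some of whose cells can make Acta2, Cnn1 and Mylk, had 7 of 10 higher (12.5% of all tested genes) and 0 lower, with Krt5 and Krt17 at 8.64 and 9.31, and summed to 1301 to 5428 CPM in SCC and 655 to 1479 CPM in normal lung. Of these 10, 8 were higher in SCC 2 and SCC 5 alone (4.14% of all), and after subtraction 6 of 8 (8.07% of all). Krt5 was highest in SCC 5 (1486 CPM), where Acta2 was also the highest of the SCC libraries. Before subtraction Cnn1 in SCC 5 was below SCC 3 and SCC 4, and Mylk was the second lowest. The background for Cnn1 was 8.33 CPM in SCC 3, 8.85 CPM in SCC 4 and 1.055 CPM in SCC 5. For Mylk it was 26.3, 26.7 and 28.4 CPM in SCC 1, SCC 3 and SCC 4, and 3.39 CPM in SCC 5. The order of libraries for Cnn1 and Mylk is thus not free of background. Whether tumour cells contribute Acta2, Cnn1 or Mylk transcripts was not tested. Of 5 tested mesothelial genes 3 were higher (12.5% of all tested genes), Upk1b (6.11) and Msln (4.59) among them, and 0 lower (8.68% of all). Upk3b (-1.74) and Lrrn4 (1.34), named after their values were seen, lay on opposite sides of 0 and did not pass (edgeR adjusted p = 0.195 and 0.297). Mesothelial calls in SCC 2 and SCC 5 alone were 3 of 5 higher and 1 lower (4.14% and 5.16% of all). After subtraction 3 of 4 were higher and 0 lower (8.07% and 6.79% of all). Of 2 tested skeletal muscle genes 1 was higher, Atp2a1 (2.84, edgeR adjusted p = 0.0416), beside 12.5% of all tested genes. In SCC 2 and SCC 5 alone Atp2a1 did not pass (0.72, edgeR adjusted p = 0.836). The skeletal muscle list summed to 13.5 to 148 CPM in SCC and 6.08 to 94.3 CPM in normal lung.

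**Figure D5:**
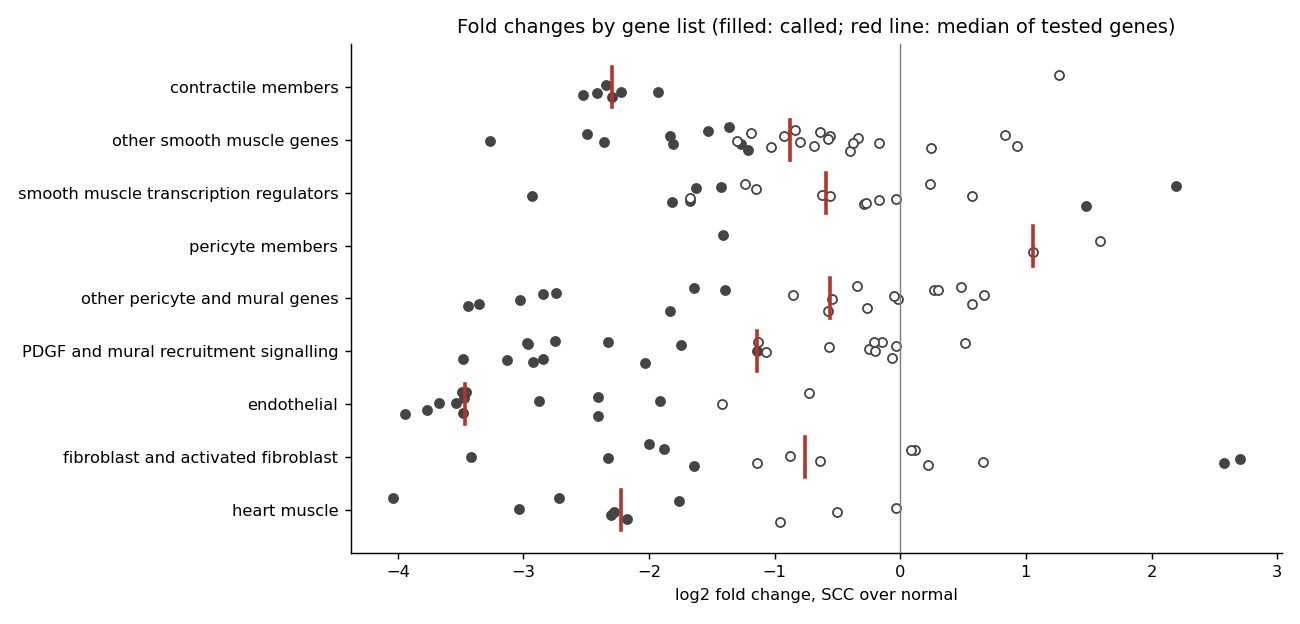
Log2 fold change of SCC over normal lung for each tested gene of 9 lists, with filled points for genes called at an adjusted p under 0.05 and a red line for the median of the list. The contractile median (-2.29) lies near that of heart muscle (-2.23), the endothelial median is -3.47, and the medians of the further smooth muscle and pericyte lists are -0.88 and -0.56.

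The genes whose group-centred log2 CPM followed the mean of the contractile genes most closely over the 10 libraries were Tppp, Mrpl51, Syde2, Acsf3 and Fam149b, with correlations of 0.94, 0.94, 0.91, 0.90 and 0.90. For the mean of the pericyte genes they were Txndc12, Cmtm3, C3ar1, Daxx and Tnik, at 0.94, 0.94, 0.94, 0.92 and 0.92. They were picked as the highest of 10807 genes and share library and depth, so the values describe likeness only.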

How the data were processed

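The authors deposited whole-number read counts per gene symbol, not normalized. The submitters' processing notes list TopHat2 2.0.1, cutadapt 1.9.1, DESeq2 and HTSeq 0.6.1, without roles, and the mm10 build. Annotation, strand setting and treatment of multiply mapped reads: not given in the sources used here. Per the labels' protocols, laser-captured RNA from fixed sections went into a stranded total RNA kit for very small inputs.

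The comparison used edgeR 4.0.16 in R 4.3.3 (filterByExpr by group, TMM factors, robust quasi-likelihood test of SCC over normal lung, no covariate), and p-values were adjusted by Benjamini-Hochberg over 13203 genes with a threshold of 0.05. The step was tested on simulated counts drawn from normal lung means with a fixed dispersion and no receptor background. That test therefore does not cover calls limited by the background in SCC. The SE is the log2 fold change divided by the square root of F. CPM use total counts; log2 CPM use TMM and a prior count of 2. Positions and lengths are from GENCODE M21 (basic set), matched by symbol for 24063 genes. The background is the count on 1477 receptor genes divided by their coding length (the highest 2% set to the 98th percentile), times exon length. Floors cover counting error only.

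Genes named are the 10 members and, of each list, the called genes of smallest p, up to 3 or 2 in each direction; Pdgfb is named for its role, and the others are marked as named after their values were seen. Likeness was computed for genes averaging 10 CPM or more, without those named Gm or Rik. The members, the lists and the alternatives were chosen with earlier results of these data known. The alternatives (limma 3.58.1, DESeq2 1.42.0 and other settings) are given in the closing section; treating SCC 3 and SCC 4 as 1 library was added after seeing the data. The labels give no batch.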

Additional observations from a re-analysis of the deposited data

How the results depend on the processing

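No paired analysis was possible because the labels give the libraries of the groups no shared numbers. The counts of contractile genes (6 lower, 0 higher) stayed within 1.5 times under the alternatives, except that limma-voom called 1 higher (Lmod1, 1.82) and the receptor signal as a covariate left 1 lower. The counts of pericyte genes (1 lower, 0 higher) were 1 higher with limma-voom (Cspg4, adjusted p = 0.0292), and 0 lower with SCC 2 and SCC 5 alone or with the covariate. Lmod1 turned negative with SCC 2 and SCC 5 alone (-1.28) and with the covariate (-2.26). Over all tested genes, 1645 were higher and 1146 lower. These counts were 5470 and 2072 without a filter on low counts, 3259 and 2766 with limma-voom, 592 and 738 with SCC 2 and SCC 5 alone, and 468 and 375 with the covariate; 3551 were higher with a filter of 1 CPM in 5 libraries and 929 after background subtraction. Leaving out 1 library at a time gave 1304 to 2207 higher and 1009 to 1473 lower genes, 5 to 6 contractile genes lower and 0 to 0 higher, 1 to 1 pericyte gene lower and 0 to 0 higher, and a difference of SCC from normal lung in the log2 ratio of contractile to pericyte sums between -1.76 and -1.54 (-1.69 with all libraries). That difference was -2.34 with the mean of log2 CPM per set and -1.50 after background subtraction. With SCC 3 and SCC 4 summed as 1 library it was -1.76, and 6 contractile genes and 1 pericyte gene were lower. The median over all tested genes, 0.07, was 0.27 with upper-quartile factors and 0.16 with DESeq2 size factors, and the directions of the 10 genes held under both; Cnn1 lost its call there (adjusted p = 0.0789 and 0.051). Of 209 values of single members, 191 kept direction and side of the threshold, 14 lost the call, 2 gained it and 2 changed direction. Where no cause is shown by the setting itself, the cause was not tested. Depth limits Cnn1 in SCC (46 counts) and Rgs5 in normal lung (59 counts).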

Other observations

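Genes of the nitric oxide and cyclic GMP route, by which smooth muscle and pericytes relax, were picked from several lists after their values were seen and get no test as a group. Besides Gucy1a3 and Gucy1b3, Pde5a, which breaks down cyclic GMP, averaged 93.9 CPM in SCC and 300 CPM in normal lung (-1.81, SE 0.37, edgeR adjusted p = 0.000799). Prkg1, the kinase that cyclic GMP activates, averaged 22.2 CPM in SCC and 48.9 CPM in normal lung, and its difference of -1.30 did not pass (edgeR adjusted p = 0.0628). Among receptors for constricting signals, Ednra, for endothelin, averaged 31.3 CPM in SCC and 100.2 CPM in normal lung (-1.83, edgeR adjusted p = 0.000961). Agtr1a, for angiotensin, averaged 12.4 CPM in SCC and 11.5 CPM in normal lung (-0.02, edgeR adjusted p = 0.99). It had 14.1, 20.4 and 15.9 CPM in SCC 1, SCC 3 and SCC 4, the libraries of high receptor signal, and 9.75 and 2.04 CPM in SCC 2 and SCC 5. Edn1, the endothelin ligand, stood at 27.7 CPM in SCC and 28.9 CPM in normal lung (-0.21, edgeR adjusted p = 0.828). Its SCC libraries ran from 6.12 CPM in SCC 5 to 42.4 CPM in SCC 1. The averages in this section include the background.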
